A study of Arabidopsis thaliana with 17 samples.

Results

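Described here are transcripts of Arabidopsis thaliana seedlings that were induced by a heat treatment and were higher still when the seedlings had been heated once before. They were chosen from the wild-type arrays: the mean log2 intensity after a single heat had to exceed that of unheated seedlings by at least 1, the mean after the later heat in previously heated seedlings had to exceed that after a single heat by at least 0.6, and the lowest array after both heats had to lie above the highest after a single heat. Of 22746 probe sets, 668 met the first condition, 88 of these the second and 65 all 3. The HSP70 family gene AT1G11660 was left out by name, which left 64 members, 31 of them with 1 listed gene, 1 with several and 32 with none. The same rule names COR47, COR15A, STZ and SRC2 for removal, and none of these was among the 65 (every primed and triggered array lay above every triggered one in 4.53% of all probe sets). Because the rise with heat and the rise with priming in the wild type selected the members, both are given below as a description without a test.

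Whole seedlings were collected at 7 d of age. Primed and triggered seedlings were first heated at 4 d of age (37 °C, 1 h), recovered for 3 d at the growth temperature of 22 °C, and were heated again in the same way just before collection. Triggered seedlings had only the later heat, primed seedlings had only the earlier heat, and naive seedlings had neither. The hsfa2 knockout, the insertion line SALK_008978 in the Col-0 background, contributed 2 primed and triggered, 2 triggered and 2 naive arrays, and the Col-0 wild type 3 primed and triggered, 3 triggered, 2 primed and 3 naive arrays, 17 in all. The knockout is represented by this line alone, and hsfa2 seedlings that were only primed were not analysed here. Replicates are labelled biological without further detail, so p-values measure the spread between these samples.

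Heat shock factors are transcription factors that bind heat shock elements in promoters and switch on chaperone genes when proteins begin to unfold. HSFA2 is itself made after heat and is known in Arabidopsis for keeping heat genes active into the recovery phase and for making a later response stronger, a property called transcriptional memory. Such memory can take the form of a level that stays high during recovery, or of a level that returns to the start and rises further at the next heat. The arrays cannot separate fewer cells of a type from less RNA per cell, and they carried no listed probe set for HSFA2, so no check of the knockout on its target was made.

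Values are log2 of the deposited intensity, and differences are in log2 units, so a difference of 1 is a doubling. Adjusted p-values come from limma, fitted to all 17 arrays with Benjamini-Hochberg adjustment over 22746 probe sets, and calls were made at an adjusted p under 0.05. The array median of intensity was 51.8 to 58.9 in arrays of seedlings collected hot and 60.1 to 64.2 in the others. In 3 arrays (both primed arrays and naive replicate 3 of the wild type) the hybridization control bioB lay at 4.27 to 4.35, against 6.81 to 8.21 in the other 14. Markers of root (PYK10, at 10.38 to 12.90 over all arrays) and of green tissue (PRK, at 12.01 to 13.11) were present throughout, while the root hair genes EXPA7 and EXPA18 were low, at 3.80 to 6.26 and 4.41 to 6.93. All 3 root markers fell with a single heat in hsfa2 (median −1.36) and in the wild type (median −1.30). Their median difference with priming was −0.0023 in hsfa2 and 0.16 in the wild type. The 2 measured green tissue markers differed by −0.79 and −0.19 with a single heat in hsfa2, and 1 was called lower. In the wild type they differed by −0.74 and −0.25, and 1 was called lower. The guard cell marker FMA differed by −0.76 in hsfa2 and −0.69 in the wild type and was not called in either. The part of these markers in the results was not tested.

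In wild-type seedlings the 64 members were higher by 1.01 to 7.23 log2 units (median 1.95) after a single heat than without heat, and higher by another 0.60 to 3.27 (median 0.97) when the seedlings had also been primed. The median level over the members in hsfa2 was 8.05 and 7.79 in the primed and triggered arrays, against 8.27 and 7.99 in the triggered and 5.58 and 5.62 in the naive arrays. In the wild type it was 9.41, 9.03 and 9.45 in the primed and triggered arrays, against 8.24, 7.99 and 8.33 in the triggered, 5.72 and 6.44 in the primed and 5.28, 5.57 and 5.74 in the naive arrays. After both heats the hsfa2 arrays thus lay near the levels that either genotype reached after a single heat. The members' group means after priming and triggering in the wild type ran from 5.96 (249255_at) to 13.00 (263433_at), below the highest value on any array, 14.26.

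**Figure D1:**
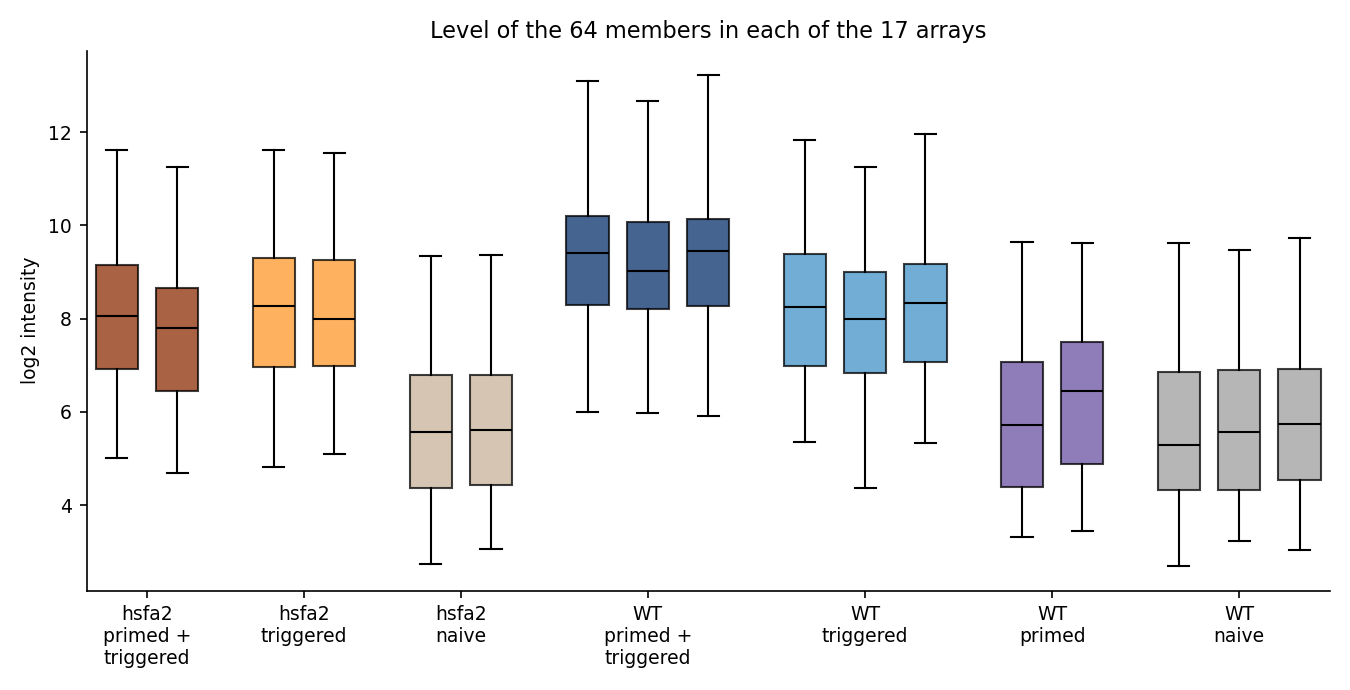
Level of the 64 members (log2 intensity, y axis) in each of the 17 arrays, grouped by genotype and treatment along the x axis; boxes span the quartiles, the line is the median and whiskers reach the lowest and highest member. The 3 wild-type primed and triggered arrays have medians of 9.03 to 9.45, and the wild-type triggered and hsfa2 heated arrays 7.79 to 8.33.

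By size of the single-heat difference in the wild type, 11 members had 4 or more, 21 had 2 to 4 and 32 had 1 to 2. The rise with priming hardly varied between these classes, with medians of 1.00, 0.96 and 0.94. The values nearest the limits show how the rule divided a continuous range. The lowest rise with heat among the members was 1.0052 (259890_at), and the nearest probe set that failed on this alone was at 0.9978 (265943_at). For the rise with priming the lowest member was AT5G41620 at 0.60, and the highest probe set that failed on this alone was 255991_at at 0.57. The lowest primed and triggered array of AT5G19875 lay 0.0040 above its highest triggered array, and 247466_at failed with an overlap of −0.02.

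AT2G21820, annotated as a seed maturation protein gene, had the largest rise with priming among members with a listed gene. It stood at 9.98, 9.22 and 9.68 in primed and triggered wild type, against 6.57, 5.85 and 7.05 in triggered and 4.34, 3.96 and 4.39 in naive seedlings. Every primed and triggered array thus lay over 2 log2 units above every triggered array, a mean difference of 3.14 on top of a heat response of 2.26. AT1G02700 followed at 8.85, 8.21 and 8.37, against 6.40, 6.58 and 6.46 in triggered and 4.00, 4.01 and 4.54 in naive arrays, a difference with priming of 1.99. In AT5G07330 the heat response was itself among the largest of all members: it was at 12.74, 12.46 and 12.58 after both heats and 10.83, 10.56 and 10.94 after the later heat alone, against 4.09, 3.59 and 3.78 in naive seedlings. Its rise of 6.96 with a single heat grew by another 1.81 with priming.

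Genes for handling RNA and proteins formed part of the set. AT5G53680, which encodes a protein with an RNA recognition motif, had 10.65, 10.42 and 10.13 in primed and triggered seedlings, against 9.10, 9.09 and 9.04 in triggered and 2.69, 3.24 and 3.04 in naive ones. It thus combined a low naive level with a rise of 6.09 and a further 1.32. AT4G16660, an HSP70 family gene, was at 10.19, 9.22 and 10.14 after both heats, against 8.93, 8.21 and 9.06 after the later heat and 7.02, 6.84 and 7.55 without heat. The spread between its arrays was wide, with replicate 2 lowest in both heated groups, and its difference with priming was 1.12. AT1G72660, which encodes a GTP-binding protein of the DRG family, reached 9.95, 9.63 and 9.97, against 9.34, 8.84 and 9.42 in triggered and 3.67, 3.82 and 4.02 in naive seedlings, a large heat response (5.36) with a small addition (0.65). AT1G66510, a gene of the AAR2 family linked to splicing, showed the same proportions, at 9.50, 9.39 and 9.53, against 8.98, 8.49 and 8.81 in triggered and, in naive seedlings, 4.59, 4.85 and 4.35. AT1G12650, whose product is annotated for ribosomal RNA processing, was higher by 1.02 with heat and by a further 1.05 with priming. AT5G58787, of the RING/U-box family of ubiquitin ligases, was higher by 2.04 with heat and by 0.84 with priming, and AT5G38895 of the same family by 1.38 and 0.64.

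Other members encode enzymes and cell wall proteins. AT3G48540, of the cytidine and deoxycytidylate deaminase family of nucleotide metabolism, varied little within the heated groups and more among naive arrays, at 8.04, 7.81 and 7.92 in primed and triggered, against 6.79, 6.82 and 6.71 in triggered and 4.94, 5.13 and 5.86 in naive seedlings. Its lowest primed and triggered array was 0.99 log2 units above its highest triggered array. AT5G04980, of the inositol polyphosphate phosphatase family, was at 8.13, 8.17 and 8.31, against 6.84, 6.68 and 7.18 in triggered and 6.07, 5.14 and 5.62 in naive arrays, where priming added as much (1.30) as the heat alone had (1.29). AT1G58170, which encodes a dirigent-like protein, a family that guides the coupling of lignans and lignin, had 8.24, 8.61 and 8.27, against 6.79, 7.18 and 7.03 in triggered and 4.27, 4.24 and 4.69 in naive seedlings. Smaller additions were seen for AT1G62760, a pectin methylesterase inhibitor gene (0.85), and for AT4G21580, a zinc-binding dehydrogenase gene (0.75).

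The remaining members with a listed gene are described without a role. AT2G20720 was at 7.63, 7.07 and 7.37 after both heats, against 5.89, 5.67 and 6.27 after the later heat alone and 4.42, 4.12 and 4.88 in naive seedlings. AT1G33055 had 9.36, 8.68 and 8.96 in primed and triggered seedlings, against 8.15, 6.83 and 7.79 in triggered and 6.81, 6.34 and 6.42 in naive seedlings. Its triggered arrays were widely spread and replicate 2 of them lay at the naive level. For AT1G19020 the values were 10.76, 11.20 and 10.62 after both heats, 9.43, 9.79 and 9.17 after the later heat and 7.03, 7.81 and 5.95 without heat. AT1G27285 stood at 7.85, 8.19 and 8.25 after both heats, 6.76, 6.66 and 6.88 after the later heat and 4.26, 4.36 and 4.58 without heat. AT1G68140 was at 11.07, 10.82 and 11.28 in primed and triggered seedlings, against 9.82, 9.62 and 10.23 in triggered and 8.16, 8.30 and 7.66 in naive ones. All of these differences with priming lay between 1.16 and 1.41. Similar steps were seen in AT5G05220, at 9.06, 9.17 and 8.72, against 7.87, 8.23 and 7.52 in triggered and 3.99, 4.03 and 4.06 in naive arrays, and in AT1G73740, at 8.21, 7.96 and 8.11, against 6.94, 6.72 and 7.42 in triggered and, in naive arrays, 6.14, 5.72 and 5.61. Strong heat responses with a smaller addition were those of AT1G44414 (4.86 and 0.98), AT4G23493 (4.62 and 0.70) and AT3G56250 (3.24 and 0.92), where the first value is the rise with a single heat and the second that with priming. The last of the 31, AT1G31335, AT5G61190, AT1G11320, AT5G19875, AT4G21310 and AT5G41620, had a rise with priming of 0.60 to 1.01.

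**Figure D2:**
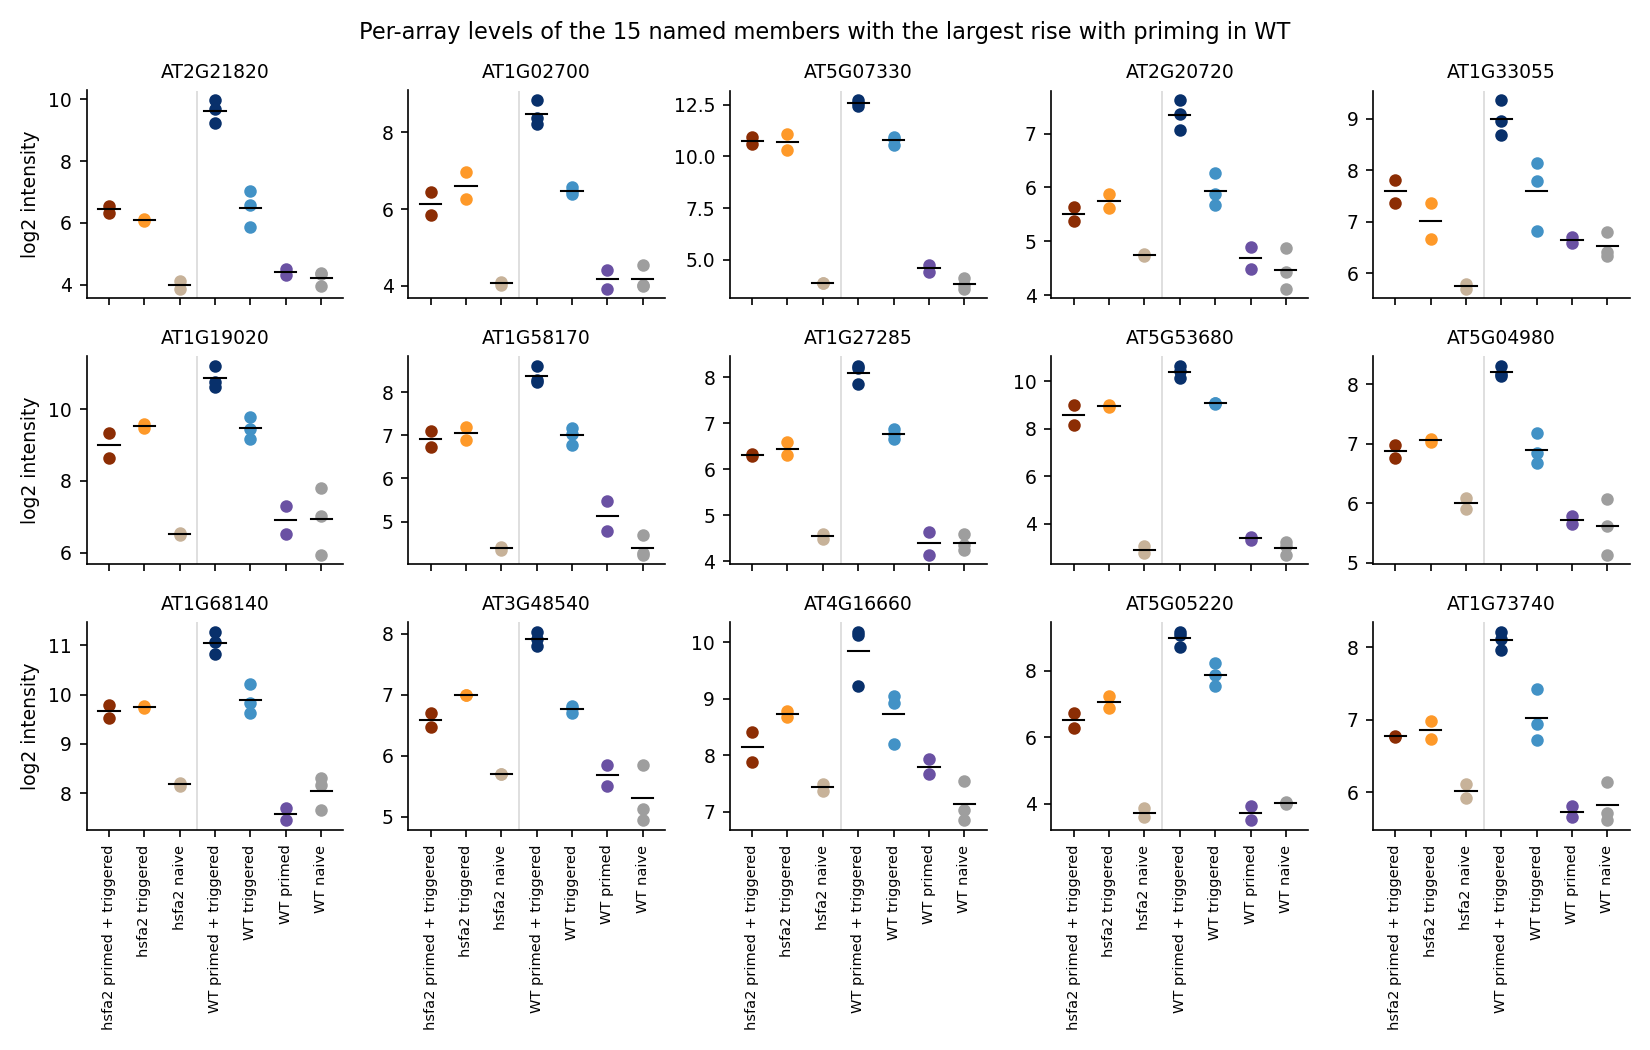
Log2 intensity (y axis) in each array (points) and group means (bars) for the 15 members with 1 listed gene and the largest rise with priming in the wild type; the x axis gives genotype and treatment. In all 15 panels the wild-type primed and triggered points lie above every other group.

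Several of the largest rises with priming belonged to probe sets without a listed gene. 258603_at was at 8.91, 8.68 and 9.40 in primed and triggered seedlings, against 5.93, 4.38 and 6.87 in triggered and 3.96, 4.21 and 3.76 in naive ones, a difference with priming of 3.27, the largest of the 64. Triggered replicate 2 of this probe set was near the naive level, so its heat response of 1.75 rests on the other two arrays. 245903_at had 9.79, 9.18 and 9.49, against 6.87, 6.52 and 7.05 in triggered and 4.90, 4.94 and 5.65 in naive arrays. 258695_at joined the largest heat response of the set (7.23) to a rise of 1.90 with priming: 12.59, 12.55 and 12.84 after both heats, 10.72, 10.35 and 11.21 after the later heat and 3.50, 3.52 and 3.56 without heat. 263433_at reached the highest level of any member, 13.10, 12.68 and 13.22, against 11.33, 10.00 and 11.96 in triggered and 8.34, 6.31 and 8.79 in naive arrays, with replicate 2 lowest in each of these groups. The probe sets without a single listed gene that are not named elsewhere had a rise with priming of 0.66 (266806_at, with several listed genes) to 1.75 (264940_at).

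The 31 listed genes lie on all 5 nuclear chromosomes, 14 on chromosome 1, 2 on chromosome 2, 2 on chromosome 3, 4 on chromosome 4 and 9 on chromosome 5, by their locus names. Of 30 that could be placed in the RefSeq gene order (TAIR10.1), none had another member as a direct neighbour among the 29 neighbours with a listed probe set. In 1 case the neighbour was itself heat-induced: AT4G21310 lies next to HSA32, a gene required for long-term acquired thermotolerance. HSA32 rose by 5.54 in hsfa2 and 5.16 in the wild type with a single heat, and differed by 0.18 and 0.07 with priming, while AT4G21310 differed by −0.42 in hsfa2 and 0.69 in the wild type with priming. Of the 31 members with 1 listed gene, none was named in the gene lists used below. These lists do not hold whole families, since AT4G16660 is annotated as an HSP70 family gene and AT2G21820 as a seed maturation protein gene, and the members without a listed gene could not be matched to them.

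Whether the members still respond to heat without HSFA2 was read from the triggered and naive hsfa2 arrays, which the rule had not used. All 64 were higher in both triggered than in both naive hsfa2 arrays, against 32.6% of all probe sets, and limma called 59 of them higher and 0 lower, against 3.50% and 4.88% of all probe sets. The rises ran from 0.70 to 6.82 log2 units, with a median of 1.92, where all probe sets had a median of 0.02. The 604 other heat-induced probe sets, with a wild-type rise of at least 1, had a median of 1.94, with 99.2% above 0. The rise in hsfa2 was thus not particular to the members. AT5G07330 rose by 6.82 (SE 0.25), at 10.29 and 11.08 in triggered and 3.88 and 3.85 in naive hsfa2 seedlings (limma adjusted p = 1.05e-09). The RNA recognition motif gene AT5G53680 rose by 6.07 (SE 0.25), at 8.92 and 9.01 in triggered and 2.74 and 3.05 in naive hsfa2 seedlings. The DRG-family gene AT1G72660 rose by 5.80 (SE 0.41), AT4G23493 by 5.13 (SE 0.36), AT1G44414 by 4.96 (SE 0.24) and AT1G66510 by 3.81 (SE 0.27). The corresponding wild-type values, which chose the members, are given above.

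The heat responses of the 64 members in hsfa2 and in the wild type, which share no arrays, had a Pearson correlation of 0.97 and a Spearman correlation of 0.90 across members, as a description. Their difference, hsfa2 minus wild type, ranged from −1.04 to 0.86 with a median of −0.10. It lay within 0.5 either way for 55 of 64 (85.9%), against 75.7% of the 604 other heat-induced and 93.6% of all probe sets. Since the wild-type rise chose the members, this difference was not tested. The lowest of the range was 258603_at, at 4.82 and 5.10 in triggered and 4.42 and 4.10 in naive hsfa2 seedlings (0.70, SE 0.54, limma adjusted p = 0.519). The other 4 members not called were 256589_at (1.02, SE 0.64), AT1G33055 (1.27, SE 0.37), 261768_at (1.07, SE 0.36) and 245206_at (0.90, SE 0.26). Among called members the smallest rises were AT1G73740 at 0.84 (SE 0.22), 259890_at at 0.93 (SE 0.17), 245521_at at 0.94 (SE 0.23) and AT2G20720 at 1.01 (SE 0.26).

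**Figure D3:**
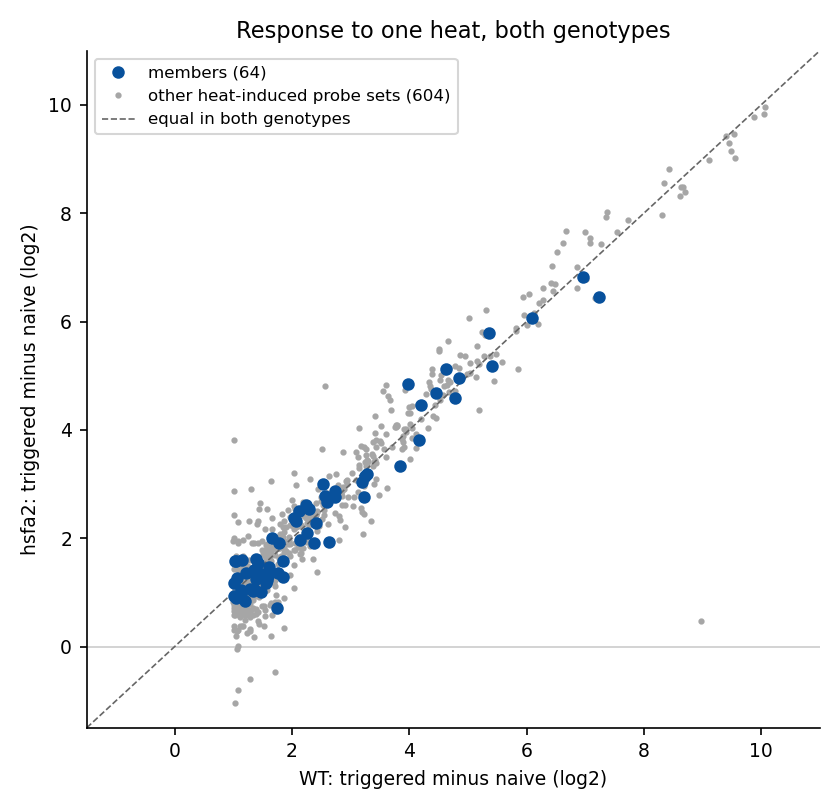
Difference between triggered and naive seedlings in hsfa2 (y axis, log2) against that in the wild type (x axis, log2) for the 64 members (blue) and the 604 other probe sets with a wild-type rise of at least 1 (grey); the dashed line marks equal values. The members follow the line, with a Pearson correlation of 0.97.

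Before any heat, the members had a median difference of −0.02 (hsfa2 minus wild type), with 6 members above and 7 below without overlap of the arrays, against 12.4% and 10.1% of all probe sets. After a single heat the median difference was −0.09, with 4 members higher and 9 lower in hsfa2 without overlap, against 14.7% and 10.5% of all probe sets. The lowest relative to the wild type were 258695_at, at 10.13 and 9.74 in hsfa2 and 10.72, 10.35 and 11.21 in wild-type triggered seedlings, and AT5G05220, at 7.25 and 6.88 in hsfa2 and 7.87, 8.23 and 7.52 in wild-type triggered seedlings. Higher in hsfa2 were AT4G21310, AT5G61190, AT1G72660 and AT3G48540, by 0.67, 0.67, 0.38 and 0.23. The wild-type naive and triggered arrays both entered the rule, so these differences were left without a test.

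The effect of the earlier heat in hsfa2 was measured on the hsfa2 arrays after both heats and after the later heat alone, which the rule had not used either. The rise with priming that defines the members in the wild type was not seen in hsfa2 for the set as a whole. The members' median difference was −0.19 log2 units, with 11 of 64 above 0. All probe sets had a median of −0.02, with 45.2% above 0. Only 1 member, 256589_at (0.69), reached 0.6. Since the rule favoured large wild-type rises, smaller ones in other arrays are partly set by the choice. How far this holds was not tested. Limma called 0 of the 64 (smallest adjusted p = 0.776), and 0 of all probe sets (0%). At an unadjusted p under 0.05 there were 4 of 64 members (AT1G11320, AT5G05220, 246733_at and 249139_at), all lower. Of all 22746 probe sets, 1331 passed in either direction, a similar share. No overlap between the arrays was found for 3 members that were higher (AT5G19875, 256589_at and AT2G21820) and 26 that were lower in primed and triggered hsfa2 seedlings, against 22.1% and 26.1% of all probe sets. The 604 other heat-induced probe sets had a median of −0.11 in the same comparison, with 31.5% above 0.

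Since a p that misses the threshold does not show equality, the 95% intervals of the fit are given. In 50 of 64 members the interval of the hsfa2 difference lay wholly under 0.6, the smallest rise admitted in the wild type, and in 14 it included 0.6. For AT5G07330 the hsfa2 arrays were at 10.95 and 10.59 after both heats and 10.29 and 11.08 after the later heat, a difference of 0.08 (95% interval −0.45 to 0.61). The seed maturation gene AT2G21820 was at 6.55 and 6.32 in primed and triggered and 6.06 and 6.14 in triggered hsfa2 seedlings, so both arrays were higher after priming, by a mean of 0.34 (95% interval −0.35 to 1.03). 258603_at, the largest in the wild type, differed by 0.13 in hsfa2 (95% interval −1.03 to 1.30), with 5.02 and 5.18 after both heats and 4.82 and 5.10 after the later heat.

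The highest differences in hsfa2 were those of 256589_at (0.69, SE 0.64), AT1G33055 (0.57, SE 0.37) and AT5G19875 (0.44, SE 0.56), followed by AT2G21820 and 263433_at (0.20, SE 0.69). Their intervals were wide: for 256589_at the hsfa2 arrays stood at 11.04 and 10.87 after both heats and 9.95 and 10.57 after the later heat, close to the wild type at 10.98, 11.06 and 11.09 after both heats and 10.11, 10.11 and 9.87 after the later heat. Its naive wild-type level was unusually variable, 9.58, 9.47 and 7.06, with replicate 3, an array of low bioB signal, lowest.

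At the other end, 249139_at was at 9.13 and 8.43 in primed and triggered hsfa2 seedlings, against 10.24 and 9.71 in triggered ones (−1.19, SE 0.34, limma adjusted p = 0.776). In the wild type the same probe set was at 11.37, 11.88 and 11.59 after both heats, against 9.40, 10.10 and 9.74 after the later heat. 254042_at (−1.01, SE 0.78), 248964_at (−0.76, SE 0.37) and 246733_at (−0.70, SE 0.31) also had both primed and triggered hsfa2 arrays below both triggered ones, as did the HSP70 family gene AT4G16660, at 8.41 and 7.87 after both heats and 8.79 and 8.67 after the later heat, and 258695_at, at 9.72 and 8.97 after both heats and 10.13 and 9.74 after the later heat. None of these was called. The size of the median shift in hsfa2 rested on single arrays, at −0.05 without primed and triggered replicate 2 and −0.38 without replicate 1 of that group, and the sign did not change.

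**Figure D4:**
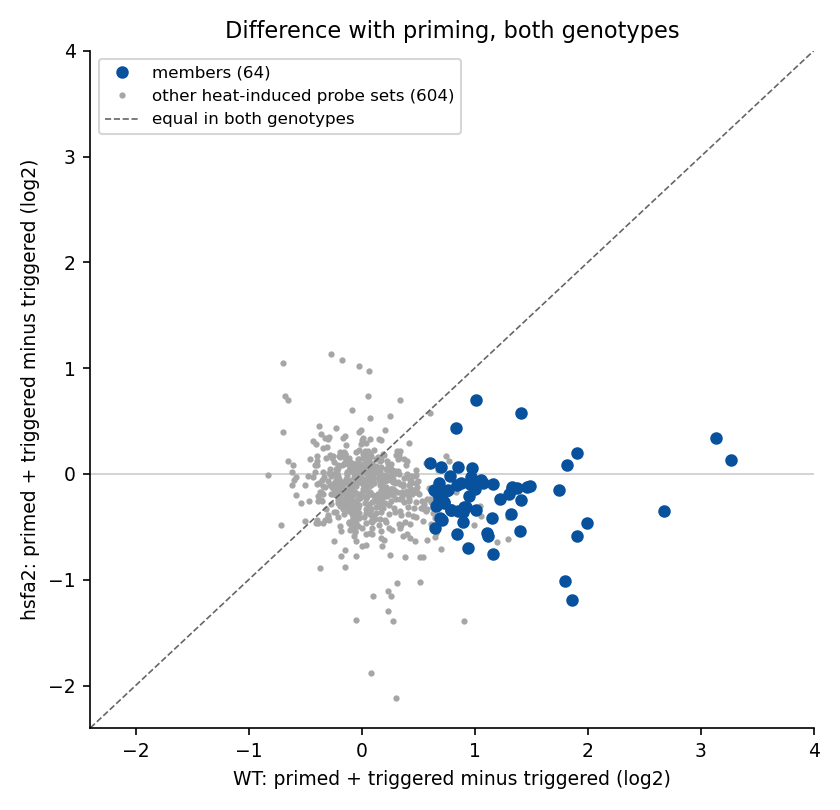
Difference between primed and triggered and triggered seedlings in hsfa2 (y axis, log2) against that in the wild type (x axis, log2) for the 64 members (blue) and the 604 other heat-induced probe sets (grey); the dashed line marks equal values. The rule placed the members at 0.60 or more on the x axis, and on the y axis they lie between −1.19 and 0.69.

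Across the 64 members the difference with priming in hsfa2 was not ordered like that in the wild type (Pearson correlation 0.04 and Spearman correlation 0.01, as a description, with no arrays in common). The level after both heats was lower in hsfa2 than in the wild type for all 64 members, with differences of −3.90 to −0.09 log2 units (median −1.35), and in 62 the arrays did not overlap, against 16.9% of all probe sets. The exceptions were AT4G21310 and 256589_at. The wild-type primed and triggered arrays were used to choose the members, so this direction is largely set by the choice and was not tested. After both heats the members were still above their unheated level in hsfa2, with a median of 1.73. The 604 other heat-induced probe sets had a median of 1.78, with 99.2% above 0. These differences are relative to naive hsfa2 seedlings, whose arrays are shared with the single-heat comparison. Limma called 55 of 64 members higher and 0 lower, against 2.98% and 4.82% of all probe sets. Without primed and triggered replicate 1 this count was 36.

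The chaperone genes that carry much of the classical heat response gave the following values in the same comparisons. Small heat shock proteins had 10 measured genes, of which 8 rose with a single heat in hsfa2 (median 7.92) and 0 were called with priming (median 0.01). The larger chaperones (HSP70, HSP90, HSP100) and their partners had 8 measured genes, of which 7 rose with a single heat in hsfa2 (median 4.61) and 0 were called with priming (median −0.02). In the wild type 0 genes of either list were called with priming, where 0.308% of all probe sets were, and the medians were 0.10 and 0.02. All 3 measured genes known from earlier heat memory work rose with a single heat in hsfa2 (median 7.55), and 0 were called with priming in either genotype. These 3 are already counted above, ATHSP22.0 with the small heat shock proteins and HSA32 and AT5G48570 with the larger chaperones and partners. Among the 7 measured late embryogenesis abundant (LEA) and seed maturation genes 0 were called in hsfa2 with a single heat or with priming, and in the wild type, where 5.90% of all probe sets rose with a single heat, 1 rose and 0 were called with priming (medians 0.43 and 0.02). Of 5 measured endoplasmic reticulum folding genes 1 rose with a single heat in hsfa2 and 3 in the wild type, and 0 were called with priming in either. The abscisic acid list had 1 measured gene, not called in any of these comparisons, and the heat shock factor and raffinose lists had 0. Only part of each list was measured: 10 of 18 small heat shock proteins, 8 of 23 larger chaperones and partners, and 3 of 10 memory genes. For LEA and seed maturation it was 7 of 14, for endoplasmic reticulum folding 5 of 18 and for abscisic acid 1 of 16. The other listed genes were not assessed.

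How much of the members' level remained after 3 d of recovery was read from primed against naive wild-type seedlings. The naive arrays also entered the rule, where a low naive level favours membership, so the values of this comparison are not independent of the choice. The median difference was 0.19 log2 units, with 47 of 64 above 0, where all probe sets had a median of −0.0026 and 49.5% above 0. The 604 other heat-induced probe sets had a median of 0.02, with 52.3% above 0. Measured small heat shock proteins had a median of 1.40, and the larger chaperones and partners 0.62. The LEA and seed maturation genes had −0.02, the endoplasmic reticulum folding genes 0.16 and the 1 abscisic acid gene −0.82. None of these listed genes was called. The 3 root markers had differences of 0.32 (PYK10), 0.80 (EXPA7) and 0.54 (EXPA18) in the same comparison, none of them called, and their part in the members' values was not tested. Limma called 0 of the 64 (smallest adjusted p = 0.106), and 0.00440% of all probe sets higher. At an unadjusted p under 0.05 there were 10 of 64 members higher and 1 lower, and 2061 of all 22746 probe sets in either direction. Both primed arrays lay above all 3 naive arrays for 14 members and below them for 1, AT5G05220, against 9.54% and 10.3% of all probe sets.

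After recovery 51 of 64 members (79.7%) lay within 0.5 of the naive level, against 89.6% of all probe sets. Of the 604 other heat-induced probe sets, 453 lay within 0.5 of their naive level, a lower share than among the members. The highest differences among the members were as follows. AT4G23493 was at 6.01 and 7.61 in primed and 4.74, 4.42 and 4.77 in naive seedlings (2.17, SE 0.33, limma adjusted p = 0.106), so both primed arrays stood well above the naive ones. 258695_at was at 3.93 and 8.30 in primed and 3.50, 3.52 and 3.56 in naive seedlings (2.59, SE 0.82), and thus high in primed replicate 2 with a much smaller step in replicate 1. 245903_at, at 6.25 and 7.81 in primed and 4.90, 4.94 and 5.65 in naive seedlings (1.87, SE 0.42), and 264331_at, at 6.49 and 7.47 in primed and 5.28, 5.94 and 6.09 in naive seedlings (1.21, SE 0.31), also had both primed arrays above all naive ones, replicate 2 the higher. The groups overlapped for 254042_at, at 5.36 and 7.69 in primed and 4.76, 4.72 and 6.58 in naive seedlings (1.17, SE 0.71). For AT5G19875, at 5.62 and 7.39 in primed and 5.48, 4.66 and 6.47 in naive arrays (0.97, SE 0.51), they overlapped as well.

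The 2 primed arrays differed. Relative to the naive mean the member median was 0.12 in primed replicate 1 and 0.34 in primed replicate 2, and −0.05, −0.01 and 0.10 in naive replicates 1, 2 and 3. Both primed arrays and naive replicate 3 share the low bioB signal, and within these 3 arrays the member median was 0.15, with 43 of 64 above 0, where all probe sets had 45.2% above 0. A fit with the low bioB arrays as a block compares these same 3 arrays, with naive replicate 3 as the only naive array. It gave the same member median, 0.15, and is not a separate check. Without single arrays the calls were 3 (AT4G23493, 245903_at and AT3G48540, without naive replicate 3), 4 (AT4G23493, 258695_at, 245903_at and AT1G72660, without primed replicate 1) and 1 (AT4G23493, without primed replicate 2). Across the 64 members the difference after recovery and the rise with priming, which share no arrays, had a Pearson correlation of 0.22 and a Spearman correlation of 0.09.

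**Figure D5:**
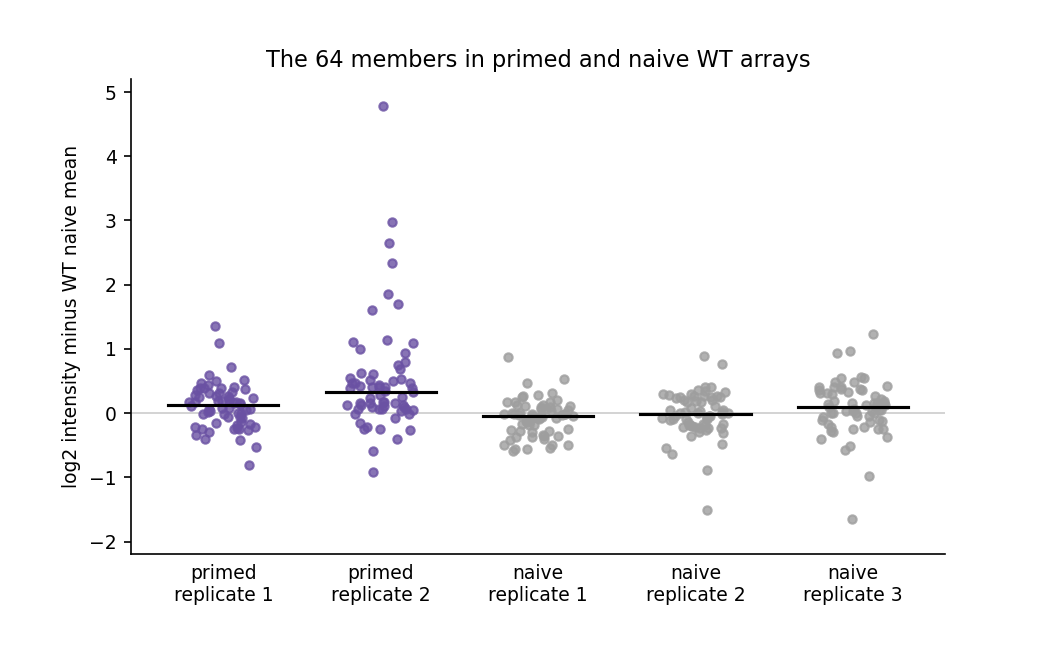
Log2 intensity of the 64 members (points, y axis) minus their wild-type naive mean in the 2 primed and 3 naive wild-type arrays (x axis); bars mark the medians. The highest points, 4.78 and 2.97 in primed replicate 2, are 258695_at and AT4G23493, and the array medians lie between −0.05 and 0.34.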

How the data were processed

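Transcript levels in 17 arrays (Affymetrix, 22810 probe sets) of whole seedlings were used. The deposited intensity values are on a linear scale (3.94 to 19602), made by the authors with RMA, per the submitters' processing notes; the sources used here give no version or settings. For the fits log2 of the intensity was taken, with no pseudocount and no further normalization, and 64 Affymetrix control probe sets were removed. For arrays the number of samples limits the precision. Probe sets were named through the platform annotation (13513 with 1 gene, 503 with several, 8730 not listed) and RefSeq (TAIR10.1).

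The fit used limma 3.58.1 in R 4.3.3 on the means of all 7 groups (10 residual degrees of freedom, prior 2.92) with Benjamini-Hochberg adjustment over 22746 probe sets; the fit was tested on simulated data. The members, gene lists and tests were chosen with earlier results of these data known. Per-array values are given for the 15 named members with the largest rise with priming and the 8 with the largest heat response (some by group or difference only), and values for the extremes of each comparison. Alternatives were array centring, quantile normalization, a floor on mean log2 intensity of 5, trended robust moderation, fits within a genotype, a replicate block, the low bioB arrays as a block, and each replicate left out; a fit without the 3 arrays of low bioB signal was added after seeing the data. Deviations from the group means of same-numbered primed and triggered and triggered wild-type arrays correlated at 0.56 to 0.66 (3 pairs), and of different-numbered ones at −0.52 to −0.03 (6 pairs), so these numbers pair the arrays by the data; the labels do not say so. No promoter or protein sequences were used here.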

Additional observations from a re-analysis of the deposited data

Results flagged for a closer look

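For 26 members every primed and triggered array lay below every triggered array in hsfa2, while in the wild type every primed and triggered array lay above every triggered array, as the rule required. This opposition was not tested, because the wild-type direction chose the members, and in hsfa2 26.1% of all probe sets were lower without overlap. The hsfa2 differences (primed and triggered minus triggered, log2) were −1.19 for 249139_at, −1.01 for 254042_at, −0.76 for 248964_at and −0.70 for 246733_at. They were −0.59 for the HSP70 family gene AT4G16660, −0.58 for 258695_at, −0.57 for AT1G11320, −0.56 for AT5G05220, −0.54 for AT1G19020 and −0.51 for the DRG-family gene AT1G72660. Next came −0.46 for AT5G61190, −0.44 for AT1G66510, and −0.42 for both AT3G48540 and AT4G21310. Differences of −0.36 for 263732_at, −0.35 for 255681_at, −0.34 for each of 259268_at, 256068_at and AT1G31335, −0.32 for AT3G56250 and −0.30 for 266806_at followed. The smallest were −0.25 for 259890_at, −0.23 for 254360_at, −0.19 for 265040_at and AT5G04980, and −0.16 for AT5G38895. No group held the 4 arrays needed to look for single outlying arrays.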

How the results depend on the processing

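The count of 59 members called higher after a single heat in hsfa2 was 60 to 64 under the other settings and 45 to 49 with each hsfa2 array left out in turn, where the lone array of a group is assumed to vary like the other groups. For both heats against naive hsfa2 seedlings, 55 members were called, 54 to 63 under the other settings and 36 to 48 with an array left out. With the replicate block these counts were 61 and 54, and 0 members were called with priming in hsfa2 or after recovery in the wild type; the block changed neither count of 0. Among wild-type arrays the numbers paired the primed and triggered with the triggered arrays, the groups that define the members. In each other pair of wild-type groups some same-numbered arrays correlated below 0, and the range over all was −0.43 to 0.66. In hsfa2 they correlated at 0.17 to 0.27, with only 2 numbers. With a replicate block over the paired groups, added after seeing the data, 99 probe sets were called with priming in the wild type, against 70, and again 0 listed genes. With every same-numbered pair required to rise, in place of no overlap, the rule kept 84, which held all 64. Priming in hsfa2 gave 0 member calls by limma under every setting that kept all hsfa2 arrays. The members' median there was −0.05 to −0.38 over all settings, those with an array left out included. Centring each array on its median put the members' median after a single heat in hsfa2 at 2.06, against 1.92. Primed against naive wild-type seedlings gave 0 to 4 calls with an array left out and 0 otherwise. The rule itself kept 42 members at a heat response of at least 1.5, and 60 to 104 with a wild-type array left out, the most without primed and triggered replicate 2, of which 62 were among the 64. It kept 76 with each array centred on its median, which held all 64, and 87 without the condition on overlap. Without the 3 arrays of low bioB signal, chosen after seeing the data, 62 members were called after a single heat in hsfa2. Over all probe sets the calls after a single heat in hsfa2 numbered 1908, against 5566 with the hsfa2 arrays alone and 828 to 1039 with an hsfa2 array left out. For both heats they numbered 1775, against 5274 and 777 to 884. Priming in hsfa2 gave 0, against 29 without triggered replicate 1, and primed wild-type seedlings gave 1, against 0 to 542 with an array left out, the most without naive replicate 3. The causes of these changes were not tested. Groups of 2 or 3 arrays limit what can be called, and intensities near background or near the top of the range can understate differences.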
